A study of Homo sapiens with 4 samples.

Results

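The genes that make cholesterol and fatty acids, together with their SREBP regulators, were examined in glioblastoma cells in which *FLI1* was knocked down. The genes were listed by their place in the pathways, and they are 28 of 46660 gene identifiers in the table. They were 7 genes of the mevalonate pathway, 11 that carry farnesyl diphosphate through squalene to cholesterol, 6 of fatty acid synthesis and desaturation, and 4 that regulate or move sterols. The libraries came from U87MG and U251MG, both established human glioblastoma cell lines grown in medium with serum, which itself supplies cholesterol and fatty acids. In each cell line, control cells (CTL in the genotype label, shControl in the title) had been infected with a lentivirus carrying the empty pGreen vector, and shFLI1 cells with a lentivirus carrying shRNA against *FLI1*. All 4 were puromycin-selected, mixed stable populations rather than clones. A pair of shRNAs was designed, and the labels do not say which of them the sequenced cells carried. Each arm of each cell line was a single library, and differences within a cell line therefore had no replicate check.

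The libraries held between 12229780 and 28891055 counts, and the shFLI1 library was 1.74 times as deep as its control in U87MG and 1.6 times in U251MG. *FLI1* was listed with 107, 52, 216 and 111 counts in U87MG control, U87MG shFLI1, U251MG control and U251MG shFLI1, or 9.34, 2.34, 12.1 and 3.71 CPM, which are counts scaled by TMM to a common library size. The targeted gene was at 25.8% and 31.2% of the control level, as the labels imply. Of 7 glial and glioblastoma markers, 5 were at 1 CPM or more in every library, whereas *OLIG2* and *S100B* stayed near 0. The 5 were not constant: *GFAP* had 634 CPM in U87MG control and 1587 in U87MG shFLI1, and 20.4 and 93.8 in U251MG. *VIM* moved little, with 3084 and 2986 CPM in U87MG and 6630 and 7005 in U251MG. The summed level of the listed immune markers was 4.10 and 9.20 CPM in the U87MG and U251MG control and 0.540 and 0.634 CPM in shFLI1. That sum was all or nearly all *CD68*, except in U251MG shFLI1, where *CD68* had 0.468 CPM and *PTPRC* 0.167 CPM. The part of these and the glial markers in the results was not tested. Neuron markers summed to between 12.4 and 30.0 CPM, nearly all *SYT1* with *RBFOX3* at or near 0, and endothelial markers to between 0.841 and 5.68 CPM, with *PECAM1* at or near 0.

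Cholesterol is built from acetyl-CoA through mevalonate, farnesyl diphosphate, squalene and lanosterol, whereas ATP citrate lyase, acetyl-CoA carboxylase and fatty acid synthase lead to palmitate, which desaturases then modify. Transcription of both arms is driven by the sterol regulatory element-binding proteins, encoded by *SREBF1* and *SREBF2*. When sterols are plentiful, INSIG proteins hold the SREBP escort SCAP in the endoplasmic reticulum, and the SREBPs stay uncleaved and inactive. Glioblastoma cells are known for a high demand for cholesterol and fatty acids.

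SREBPs bind sterol regulatory elements and usually act beside NF-Y at a CCAAT box and Sp1 at a GC box, so the promoters were read for these letters. RefSeq windows of GRCh38.p14, from 250 bases before to 50 after an annotated start, were found for 24 of the 28 genes, as 33 windows. *ACAT2*, *FASN*, *FDFT1* and *SQLE* had no entry. The letters CCAAT, on either strand, were in a window of 20 of the 24 genes (83.3%), beside 43.4% of 11726 tested genes with a window. The core of the sterol element, searched as CACNCCAC on both strands, was in windows of 6 of the 24 genes (*IDI1*, *SC5D*, *ACACA*, *SCD*, *SREBF2* and *INSIG1*), beside 7.58% of tested genes. The longer TCACNCCAC, which overlaps the core, was found in *SREBF2* alone (4.17%, beside 1.42%). The GC box, GGGCGG, was in 23 genes (95.8%, beside 74.3%). The ETS letters CCGGAAGT, the kind of site that FLI1 binds, were in *IDI1* alone (4.17%, beside 9.65%). Only these exact letters were searched, so ETS sites that differ from them by a base were not counted. Over whole windows, CCAAT was in 72.7% of those of the 28 genes and in 34.6% of all 35116. These matches describe letters and not bound sites. The windows of 4 genes that moved furthest or regulate the rest are printed 5′ to 3′ on the gene's own strand, to show how differently such promoters are built. Capitals mark CACNCCAC and CCAAT, read on either strand.
INSIG1 (chr7:155297628-155297927, plus strand): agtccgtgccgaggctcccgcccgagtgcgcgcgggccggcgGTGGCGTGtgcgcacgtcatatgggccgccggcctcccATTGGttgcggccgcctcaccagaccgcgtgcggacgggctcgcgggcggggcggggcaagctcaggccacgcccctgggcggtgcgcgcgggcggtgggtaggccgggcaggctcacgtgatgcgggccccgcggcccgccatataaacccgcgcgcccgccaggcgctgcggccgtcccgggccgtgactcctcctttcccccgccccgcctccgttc
SCD (chr10:100346983-100347282, plus strand): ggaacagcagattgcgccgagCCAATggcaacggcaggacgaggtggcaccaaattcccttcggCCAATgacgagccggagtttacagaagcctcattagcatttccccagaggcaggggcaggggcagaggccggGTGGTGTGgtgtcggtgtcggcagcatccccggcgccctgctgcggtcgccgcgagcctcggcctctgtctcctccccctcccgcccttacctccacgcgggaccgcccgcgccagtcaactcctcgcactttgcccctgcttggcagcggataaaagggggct
SREBF2 (chr22:41832855-41833154, plus strand): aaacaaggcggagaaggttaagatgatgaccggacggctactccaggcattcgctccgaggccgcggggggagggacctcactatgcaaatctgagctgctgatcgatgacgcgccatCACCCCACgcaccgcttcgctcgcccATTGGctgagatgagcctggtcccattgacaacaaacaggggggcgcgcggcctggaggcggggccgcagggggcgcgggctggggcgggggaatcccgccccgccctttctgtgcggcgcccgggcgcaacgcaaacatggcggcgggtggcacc
CYP51A1 (chr7:92134428-92134727, minus strand): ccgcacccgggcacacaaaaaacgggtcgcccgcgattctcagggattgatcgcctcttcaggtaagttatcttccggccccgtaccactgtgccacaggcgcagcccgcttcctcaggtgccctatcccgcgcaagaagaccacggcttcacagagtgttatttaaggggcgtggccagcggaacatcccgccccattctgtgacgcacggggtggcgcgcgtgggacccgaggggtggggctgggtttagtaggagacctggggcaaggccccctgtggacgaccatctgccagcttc
In *INSIG1* the sterol element core began at position -208 from the annotated start and the CCAAT box at -170. In *SREBF2* they began at -132 and -106. *SCD* held 2 CCAAT boxes, with its sterol element core at -114. *CYP51A1* held neither motif in this window and 1 GC box at -61.

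All 28 genes were counted well, from 122 to 45865 counts in a library, and together they took between 0.353% and 0.624% of the counts. Levels of different genes were compared per length, in FPKM as deposited and summed over the RNAs of a gene. *SCD*, the stearoyl-CoA desaturase that makes oleate, had the highest mean over the 4 libraries, 201 FPKM, with a range of 113 to 341. *FASN*, the fatty acid synthase, followed at 146 FPKM (101 to 193), *ACLY*, which makes cytosolic acetyl-CoA from citrate, at 135 FPKM (112 to 160.0) and *FDFT1*, squalene synthase, at 121 FPKM (70.8 to 159). These ranges overlapped, so the order of the top 4 is not fixed by 4 libraries. The lowest mean levels were those of *SC5D* (3.56 FPKM), *STARD4* (7.13 FPKM) and *HSD17B7* (8.54 FPKM). The plot of the level of each gene shows the scaled levels in the 4 libraries.

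**Figure D1:**
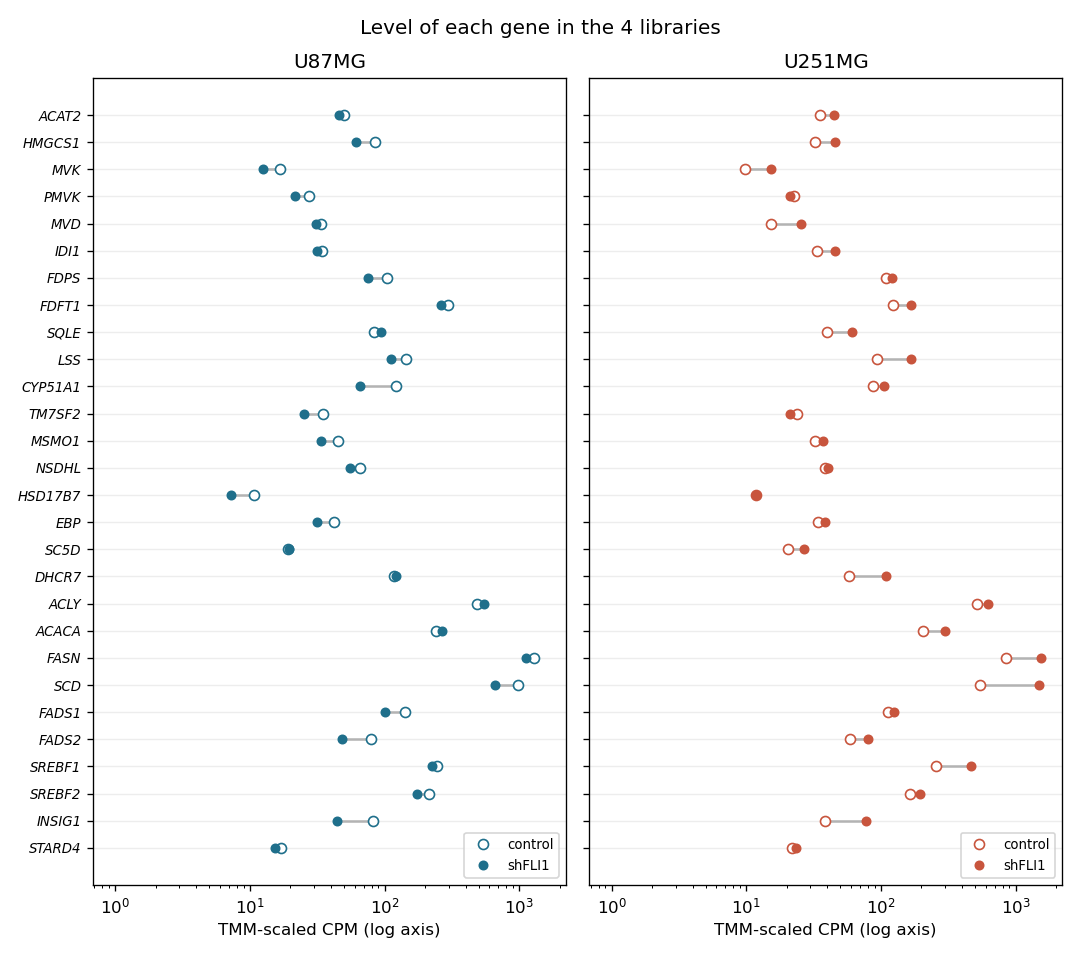
TMM-scaled CPM (log axis) of the 28 genes in U87MG (left) and U251MG (right), with open circles for the control library, filled circles for the shFLI1 library and 1 library per point. Filled points lie left of open points for 23 genes in U87MG (18 with total-count scaling) and right of them for 25 genes in U251MG (26 with total-count scaling). Of all tested genes, 44.4% were lower in U87MG shFLI1 by sign and 54.4% higher in U251MG shFLI1.

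shFLI1 cells differed from control cells in opposite directions in the 2 cell lines. In U87MG, 19 of the 28 genes were lower in shFLI1, meaning that the 95% Clopper-Pearson interval of their log2 fold change lay below 0, beside 23.3% of all 17355 genes tested. Only 3 were higher (*SQLE*, *ACLY* and *ACACA*), beside 26.7%. With total-count scaling 14 were lower in U87MG, beside 14% of genes tested. The intervals of *MVK*, *PMVK*, *FDFT1*, *NSDHL* and *SREBF1* then no longer lay below 0. In U251MG, 23 of the 28 were higher in shFLI1, beside 24.6% of 18222 genes tested, and 0 were lower, beside 23.1%. Counting 100 reads or more in either library of a pair, which all 28 genes did, 29.6% of genes were lower and 30.9% higher in U87MG, and 29.4% lower and 30.4% higher in U251MG. By sign alone, 23 of the 28 were below 0 in U87MG (18 with total-count scaling, 20 on FPKM), beside 44.4% of all tested genes. In U251MG 25 were above 0 (26 with either), beside 54.4%. These shares are for TMM scaling. With total-count scaling the median of all tested genes was itself 0.22 in U87MG and 0.11 in U251MG. The median log2 fold change of the 28 genes was -0.31 in U87MG and 0.41 in U251MG, whereas that of all tested genes was 0.06 and 0.04. The intervals cover counting error only, and in bulk libraries fewer cells expressing a gene cannot be told apart from less RNA per cell.

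Few of these differences were large. No member passed 2-fold with the exact binomial test on reads in U87MG, beside 4.33% of genes lower and 7.48% higher. In U251MG, *SCD* and *INSIG1* passed it upwards, 2 of 28 beside 4.44%, and 0 downwards, beside 4.06%. *INSIG1*, at 2.01-fold, lay at the threshold. With DESeq2 size factors *SCD* alone passed, and from the most abundant RNA of each gene *SCD* and *SREBF1* did. At 1.5-fold, 3 genes were lower in U87MG (*CYP51A1*, *FADS2* and *INSIG1*), beside 8.64%, and 0 were higher, beside 12.3%. In U251MG, 9 were higher at 1.5-fold, beside 8.45%, and 0 lower, beside 7.38%. These 9 were *MVK*, *MVD*, *SQLE*, *LSS*, *DHCR7*, *FASN*, *SCD*, *SREBF1* and *INSIG1*. The read test compares 2 libraries and not the conditions.

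**Figure D2:**
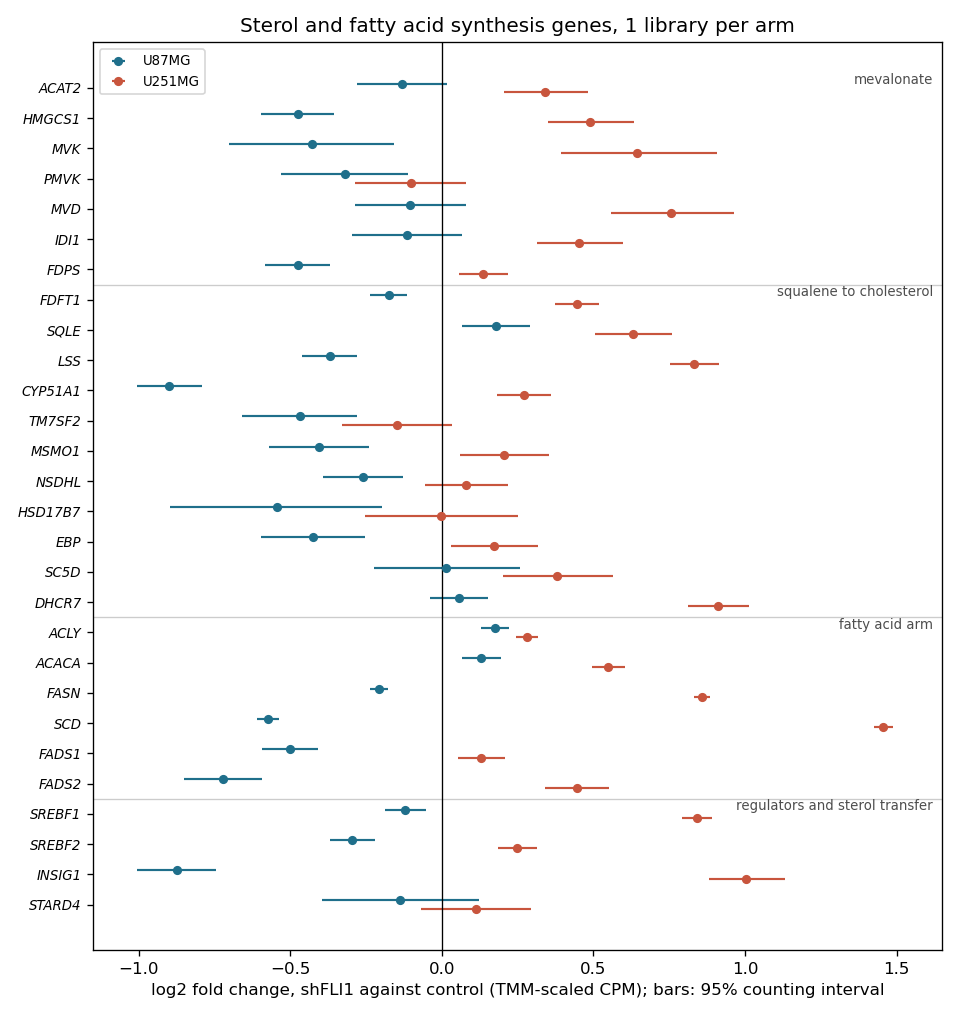
Log2 fold change of shFLI1 against control (TMM-scaled CPM) for each gene, grouped by pathway, in U87MG (blue) and U251MG (red), with bars for 95% counting intervals from 1 library per arm. Blue bars lie left of 0 for 19 genes (14 with total-count scaling) and red bars right of 0 for 23 (25 with total-count scaling), and every red point lies right of its blue point (25 of 28 from the most abundant RNA of each gene alone).

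In the mevalonate pathway, 4 of 7 genes were lower in U87MG shFLI1 by interval, beside 23.3% of all tested genes. In U251MG shFLI1, 6 of 7 were higher, beside 24.6%. Among genes with at least 100 counts in a library of the pair, these shares were 29.6% and 30.4%. *HMGCS1*, the synthase that makes HMG-CoA, had 85.5 CPM in U87MG control, 61.5 in U87MG shFLI1, 32.4 in U251MG control and 45.5 in U251MG shFLI1. Its levels in U87MG were above those in U251MG in both arms, and the gap narrowed in shFLI1. The log2 fold change of *HMGCS1* was -0.48 in U87MG (95% interval -0.60 to -0.36) and 0.49 in U251MG (0.35 to 0.63). *HMGCS1* was also the gene whose counts were most divided, with its most abundant RNA holding 25.2% of them, and that RNA alone went the other way in U87MG, with a log2 fold change of 0.20. *MVK*, mevalonate kinase, had 16.9, 12.5, 9.76 and 15.3 CPM in the same order, so its lowest level was in U251MG control. This gave a log2 fold change of -0.43 in U87MG (-0.70 to -0.16) and 0.64 in U251MG (0.39 to 0.91). *FDPS*, which makes farnesyl diphosphate, had 104, 74.9, 110.0 and 121 CPM, and U87MG shFLI1 was the lowest library. Its fold change was -0.48 (-0.58 to -0.37) in U87MG and 0.14 (0.06 to 0.22) in U251MG on the log2 scale, and -0.01 in U251MG from its most abundant RNA alone. *MVD*, the decarboxylase that ends the mevalonate steps, differed in U251MG, where it had 15.1 CPM in control and 25.6 in shFLI1, a log2 fold change of 0.76 (0.56 to 0.97). In U87MG its interval included 0 (-0.29 to 0.08). *ACAT2*, which condenses acetyl-CoA, and *IDI1*, the isopentenyl diphosphate isomerase, behaved alike in this respect, with log2 fold changes of 0.34 and 0.45 in U251MG and intervals that included 0 in U87MG. *PMVK*, phosphomevalonate kinase, was the exception of the group. Values for this kinase were -0.32 in U87MG (-0.53 to -0.11) and -0.10 in U251MG (-0.28 to 0.08) on the log2 scale. The U87MG value was -0.16 with total-count scaling, where its interval included 0.

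Between squalene and cholesterol, 8 of 11 genes were lower in U87MG shFLI1 by interval, beside 23.3% of all tested genes (29.6% of those well counted). In U251MG shFLI1, 8 of 11 were higher, beside 24.6% (30.4%). Of these, 5 were the same genes, beside 3.9% of all genes (5.84%). *CYP51A1*, the lanosterol demethylase, had 122 CPM in U87MG control, 65.4 in U87MG shFLI1, 87.6 in U251MG control and 106 in U251MG shFLI1. U87MG shFLI1 was its lowest library and U87MG control its highest. Its log2 fold change of -0.90 in U87MG (-1.01 to -0.79) was the lowest of the 28 genes, and in U251MG it was 0.27 (0.18 to 0.36). *LSS*, which closes squalene epoxide into lanosterol, had 144, 111, 93.8 and 167 CPM, so the order of the cell lines turned over between control and shFLI1. The log2 fold change was -0.37 in U87MG (-0.46 to -0.28) and 0.83 in U251MG (0.75 to 0.91). *DHCR7*, which catalyses a final reduction to cholesterol, had 117, 121, 58.3 and 109.7 CPM. Its U251MG control library stood apart below the other 3. The log2 fold change was 0.91 in U251MG (0.81 to 1.01), and in U87MG it was 0.06 with an interval that included 0 (-0.04 to 0.15). *SQLE*, squalene epoxidase and an early rate-limiting step, was higher in shFLI1 in both cell lines. It had 83.4 and 94.4 CPM in U87MG and 39.6 and 61.4 in U251MG, or log2 fold changes of 0.18 (0.07 to 0.29) and 0.63 (0.51 to 0.76). *FDFT1*, at the branch point where squalene is made, had 298, 264, 123 and 168 CPM. All its U87MG levels exceeded its U251MG levels, and its log2 fold change was -0.17 in U87MG and 0.45 in U251MG. The U87MG value was -0.0142 with total-count scaling, where its interval included 0, and -0.0252 on FPKM.

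The remaining enzymes of this stretch were lower in U87MG shFLI1, except *SC5D*. *MSMO1*, a methyl sterol oxidase, had log2 fold changes of -0.41 and 0.21 in U87MG and U251MG, and *EBP*, the sterol isomerase, -0.42 and 0.17. *TM7SF2*, a sterol reductase, *NSDHL*, a sterol dehydrogenase, and *HSD17B7*, the ketosterol reductase, were lower in U87MG at -0.47, -0.26 and -0.54. In U251MG their values were -0.15, 0.08 and -0.00, and each interval included 0. *SC5D*, the sterol desaturase, was higher in U251MG alone, at 0.38 (0.20 to 0.56). *HSD17B7*, *FDPS* and *SCD* have pseudogene copies with which estimated counts can be shared, so their values are less certain.

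The fatty acid arm held the widest contrast. *SCD* had 981 CPM in U87MG control, 659 in U87MG shFLI1, 544 in U251MG control and 1492 in U251MG shFLI1. The shFLI1 library was thus the lower of the pair in U87MG and the highest of all 4 in U251MG. The log2 fold change was -0.57 in U87MG (-0.61 to -0.54) and 1.46 in U251MG (1.42 to 1.49), where *SCD* was 2.74-fold higher. *FASN* had 1292, 1119, 845 and 1532 CPM in the same order, again with U251MG shFLI1 highest and U251MG control lowest. Knockdown cells of U87MG thus gave a log2 fold change of -0.21 (-0.24 to -0.18) and those of U251MG 0.86 (0.83 to 0.88). *FADS2* and *FADS1*, the delta-6 and delta-5 desaturases of polyunsaturated fatty acids, lie side by side in the genome. *FADS2* had 79.4, 48.1, 59.2 and 80.6 CPM, with log2 fold changes of -0.72 (-0.85 to -0.59) in U87MG and 0.45 (0.34 to 0.55) in U251MG. *FADS1* had 142, 100.4, 113 and 124 CPM, with log2 fold changes of -0.50 (-0.59 to -0.41) and 0.13 (0.05 to 0.21). Both desaturases were at their lowest in U87MG shFLI1. *ACLY* and *ACACA*, the acetyl-CoA carboxylase that commits carbon to fatty acids, were higher in shFLI1 in both cell lines. *ACLY* had 487, 549.8, 515 and 626 CPM, or log2 fold changes of 0.18 (0.13 to 0.22) and 0.28 (0.25 to 0.32). *ACACA* had 243, 266, 205 and 301 CPM, or log2 fold changes of 0.13 (0.07 to 0.20) and 0.55 (0.49 to 0.61). With the shFLI1 library of U87MG thinned to the depth of its control, *SQLE*, *ACLY* and *ACACA* had log2 fold changes of 0.11, 0.10 and 0.06 there, and only the interval of *ACLY* lay above 0.

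Among the regulators, *INSIG1*, which retains SCAP and is itself a classical SREBP target, moved most. It had 81.9 CPM in U87MG control, 44.7 in U87MG shFLI1, 38.7 in U251MG control and 77.7 in U251MG shFLI1. The high libraries were therefore U87MG control and U251MG shFLI1, and the low ones U87MG shFLI1 and U251MG control. Its log2 fold change was -0.87 in U87MG (-1.004 to -0.74) and 1.00 in U251MG (0.88 to 1.13). *SREBF1*, whose product drives fatty acid genes in particular, had 246, 227, 258 and 463 CPM, with U251MG shFLI1 standing apart from 3 libraries of similar level. Its log2 fold change was 0.84 in U251MG (0.79 to 0.89) and -0.12 in U87MG (-0.19 to -0.05), a U87MG value that was 0.04 with total-count scaling and 0.06 on FPKM. *SREBF2*, whose product drives sterol genes in particular, had 213, 174, 165 and 196 CPM, or log2 fold changes of -0.29 (-0.37 to -0.22) and 0.25 (0.18 to 0.31). *STARD4*, a carrier of cholesterol between membranes, had 17.0, 15.5, 21.8 and 23.5 CPM, and both its intervals included 0.

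The sterol arm and the fatty acid arm were then compared. The median log2 fold change of the 18 sterol genes was -0.34 in U87MG and 0.36 in U251MG, and that of the 6 fatty acid genes was -0.35 and 0.50. The medians of the arms thus differed by 0.01 in U87MG, and in U251MG the sterol median was lower by 0.14, while single genes ranged from -0.90 to 0.18 in U87MG and from -0.15 to 1.46 in U251MG. Summed over genes, the sterol arm had 1333 CPM in U87MG control and 1107 in U87MG shFLI1, and 822 and 1107 in U251MG. The fatty acid arm had 3224 and 2742 CPM in U87MG, and 2282 and 4155 in U251MG. The fatty acid sums are dominated by *FASN* and *SCD*, and their order between the cell lines turned over, whereas the sterol sums of the shFLI1 libraries were equal at this precision. All 28 genes summed to 5115, 4311, 3588 and 6023 CPM.

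**Figure D3:**
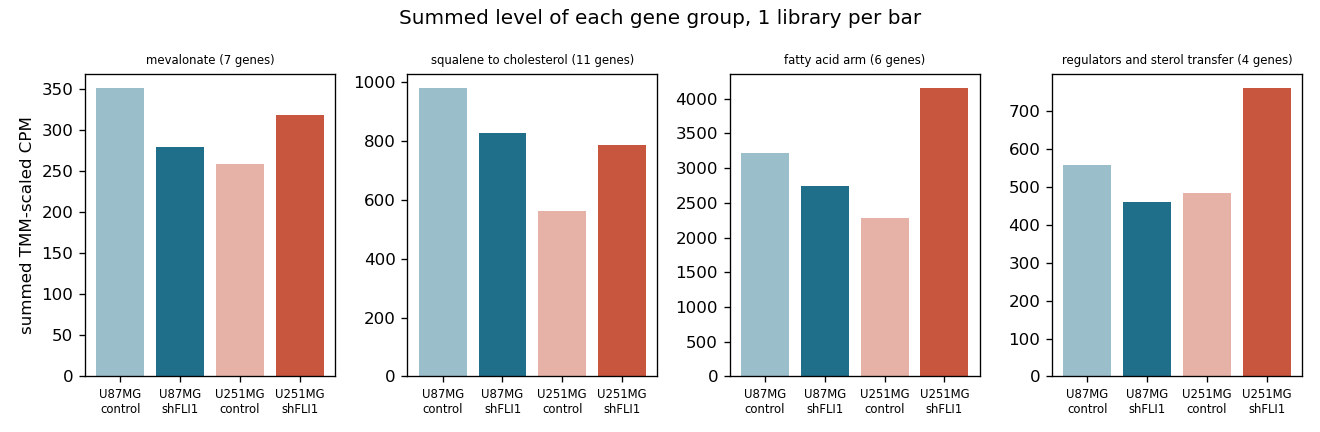
Summed TMM-scaled CPM of the mevalonate, squalene to cholesterol, fatty acid and regulator groups, each with its own axis from 0, with 1 library per bar (pale bars, control, and dark bars, shFLI1). In every panel the shFLI1 bar is the lower of the U87MG pair and the higher of the U251MG pair, from 3224 to 2742 and from 2282 to 4155 CPM in the fatty acid arm.

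The difference between the cell lines was then taken gene by gene. It cannot be tested against the spread of replicates, since 4 libraries leave no residual degree of freedom for it, and its interval covers counting error only. The log2 fold change in U251MG exceeded that in U87MG for all 28 genes (25 from the most abundant RNA of each gene alone), as for 47.6% of 16384 genes tested in both. The median difference was 0.61 and the range 0.11 (*ACLY*) to 2.03 (*SCD*), whereas the median over all genes was -0.02. The difference interval lay above 0 for 26 of the 28 genes, beside 19.6% of genes tested in both and 26.8% of the 9772 genes with at least 100 counts in every library. *PMVK* (0.22, -0.06 to 0.50) and *STARD4* (0.25, -0.07 to 0.57) were the exceptions. *SCD* (2.03, 1.98 to 2.08) and *INSIG1* (1.88, 1.70 to 2.06) led, followed by *LSS* (1.20, 1.08 to 1.32). Being lower in U87MG and higher in U251MG, each by its own interval, was found for 15 of 28 genes (53.6%), beside 3.9% of all genes and 5.84% of those well counted. The reverse was found for 0 of 28, beside 3.39%. With total-count scaling the first of these counts was 12, without *FDFT1*, *MVK* and *SREBF1*. From the most abundant RNA of each gene it was 11, without *FDPS*, *HMGCS1*, *LSS* and *MSMO1*.

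**Figure D4:**
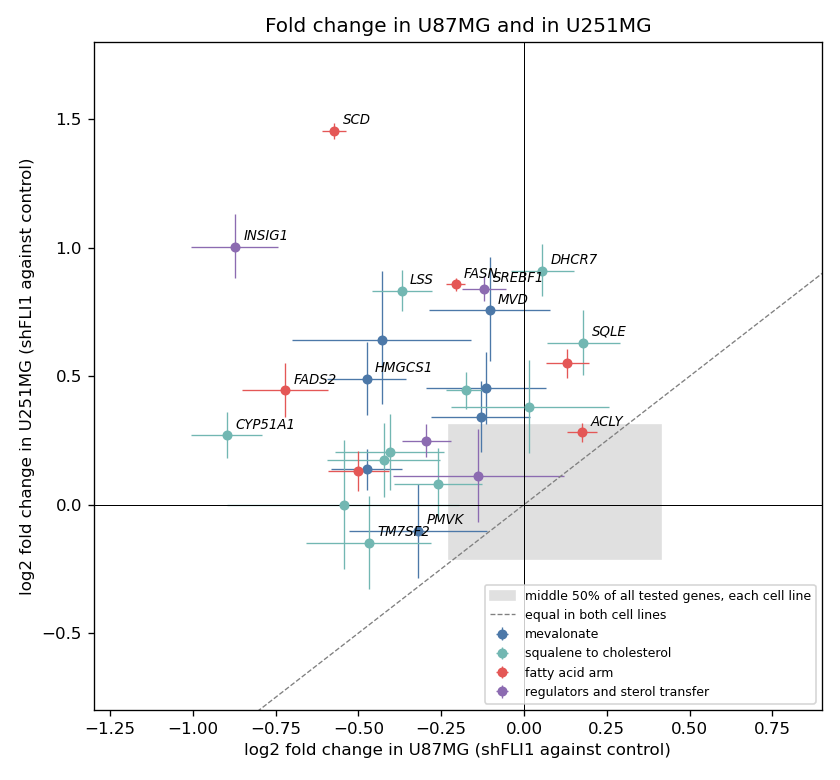
Log2 fold change (shFLI1 against control) in U251MG against that in U87MG for the 28 genes, coloured by pathway group, with bars for 95% counting intervals, a grey box for the middle 50% of all tested genes in each cell line and a dashed line where both are equal. All 28 points lie above the dashed line (25 from the most abundant RNA of each gene alone), from *ACLY* close to it (0.11) to *SCD* farthest from it (2.03).

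The control libraries already differed. In control cells, 22 of the 28 genes were lower in U251MG than in U87MG, with a median log2 ratio of -0.48, whereas 43.7% of all genes were lower in U251MG. In shFLI1 cells, 9 of the 28 were lower in U251MG and 19 were higher, with a median log2 ratio of 0.30, whereas 46.2% of all genes were lower. *INSIG1* showed the turn clearly, with a log2 ratio of U251MG to U87MG of -1.08 in control and 0.80 in shFLI1. The ratio of the controls and each fold change use the same control libraries, so they are not independent of each other.

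A change shared by both cell lines was tested with the cell lines as replicates. In edgeR's quasi-likelihood test with cell line as a block, 0 of 28 genes had an adjusted p below 0.05, beside 3.06% of 16747 genes (0.932% higher and 2.13% lower). Without adjustment, 2 of the 28 had p below 0.05. The lowest adjusted p was 0.266, for *SQLE*, at a shared log2 fold change of 0.39, higher in 2 of 2 cell lines. With DESeq2, 0 passed and the lowest adjusted p was 0.594. The fit had 1 residual degree of freedom, and fold changes that differ between the cell lines make up its residual spread. For genes that moved in opposite directions the test could hardly pass, so the 0 says little about a response in either cell line alone. *FLI1* passed in the same fit, with a shared log2 fold change of -1.85 and an adjusted p of 0.00698 in edgeR, lower in 2 of 2 cell lines.

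The same edgeR fit gave the difference in level between the cell lines, with the 2 arms of each cell line in place of replicate cultures. Any response to shFLI1 that differed between the cell lines thus entered the spread of this test. The difference passed for 5 of the 28 genes (17.9%), beside 18.6% of all genes, and all 5 were lower in U251MG, beside 8.25% lower and 10.3% higher. These were *FDFT1* (log2 difference -1.03, edgeR adjusted p = 0.00644), *HMGCS1* (-0.98, edgeR adjusted p = 0.0168), *SQLE* (-0.91, edgeR adjusted p = 0.00585), *MVD* (-0.77, edgeR adjusted p = 0.0389) and *NSDHL* (-0.69, edgeR adjusted p = 0.0158). Each was lower in U251MG in 2 of 2 arms. *MVD* did not pass in DESeq2 or with total-count scaling, where the other 4 did, and without the arm as a term 0 passed in edgeR, with 5 below 0.05 before adjustment. All 5 belong to the sterol arm, which holds 18 of the 28 genes, and the share that passed was near that of genes in general.

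The deposited table lists RNAs rather than genes, and the 28 genes had 256 of them, from 2 to 23 each. In 14 genes 1 RNA held at least 90% of the counts, *SCD* among them at 99.8%, whereas in 4 genes (*HMGCS1*, *FDPS*, *ACLY* and *MVK*) the most abundant held under 50%. Of the 66 RNAs with at least 100 counts in a U87MG library, 44 had a log2 fold change below 0 and 22 above. Of 67 such RNAs in U251MG, 17 were below 0 and 50 above. The share over all RNAs with this many counts was not taken. These counts therefore cannot be set against RNAs in general and add nothing to the gene counts. RNAs of 1 gene share reads, so they are not independent of each other.

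Neighbouring steps of lipid metabolism were described by 7 lists of 82 genes, to be read against the same shares of all genes: 23.3% lower and 26.7% higher in U87MG, 23.1% and 24.6% in U251MG, and 3.9% lower in U87MG and higher in U251MG. Of 6 sterol accessory enzymes, 1 was lower in U87MG and 5 higher in U251MG by interval. Of 9 tested genes of sterol sensing and SREBP processing, which include *SCAP* and the SREBP proteases, 3 were lower and 4 higher in U87MG, and 1 lower and 2 higher in U251MG. Their median log2 fold changes were 0.00 and 0.02, and 1 of 9 was lower in U87MG and higher in U251MG. For uptake, transport and esterification the opposite pattern was found in 3 of 10 genes, for LXR and sterol efflux in 0 of 5 and for the isoprenoid branch, which draws on the same farnesyl diphosphate, in 2 of 13. It was found in 3 of 20 genes of fatty acid elongation, activation and glycerolipid synthesis, and in 2 of 14 of fatty acid oxidation. In 6 of the 7 lists this share was above the 3.9% of all genes, with 1 to 3 genes in each. The median difference between the cell lines ran from -0.16 (LXR and sterol efflux) to 0.21 (accessory enzymes) across the 7 lists, beside 0.61 for the 28 genes.

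From each list the gene with the largest mean absolute log2 fold change was taken, besides any with a shared effect. *ERLIN1*, an endoplasmic reticulum protein that takes part in the sterol-regulated degradation of its clients, had 62.5, 35.2, 90.8 and 50.7 CPM and was lower in shFLI1 in both cell lines. Its shared log2 fold change was -0.85 with an edgeR adjusted p of 0.0158, and no other gene of the 7 lists passed. *VLDLR*, a lipoprotein receptor, had 70.0, 162, 78.9 and 88.8 CPM, a log2 fold change of 1.21 in U87MG (1.10 to 1.33) against 0.17 in U251MG (0.08 to 0.27). It was the gene past 2-fold among the sterol uptake genes in U87MG. *FNTB*, a farnesyltransferase subunit, had log2 fold changes of -0.68 and 0.27 in U87MG and U251MG. *MYLIP*, an LXR-induced ubiquitin ligase that removes lipoprotein receptors, had -0.38 and -0.54, and *ACADS*, a short-chain acyl-CoA dehydrogenase, 0.75 and 0.84. *FAXDC2*, a member of the fatty acid hydroxylase family, had 0.26, with an interval that included 0 (-0.34 to 0.90), and 0.47. *ACSL5*, an acyl-CoA synthetase, was counted 7 and 16 times in U87MG control and shFLI1, a log2 fold change of 0.20 (-1.13 to 1.76). In U251MG it was counted 12 and 2 times, a log2 fold change of -2.22 (-6.53 to -1.17). In the same list, 3 better counted genes were lower in U87MG and higher in U251MG by interval. They are named after their values were seen: *LPIN1* (-0.21 and 0.87, a difference of 1.08), *SLC25A1* (-0.38 and 0.12) and *ELOVL5* (-0.10 and 0.36). *ACACB* had -0.83 and 0.11, and *SCD5* went the other way with 0.40 and -0.04, each with a U251MG interval that included 0. The median difference of this list was 0.19. *ME1*, the malic enzyme that supplies NADPH, also lay outside the choice of genes by largest change. It is named because it was the other listed gene past 2-fold in U87MG, chosen after its values were seen. Control cells of U87MG gave 5 counts of *ME1* and shFLI1 cells 58, and the log2 fold change was 2.34 (1.27 to 4.25). U251MG gave 0 and 1, too few to be tested.

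**Figure D5:**
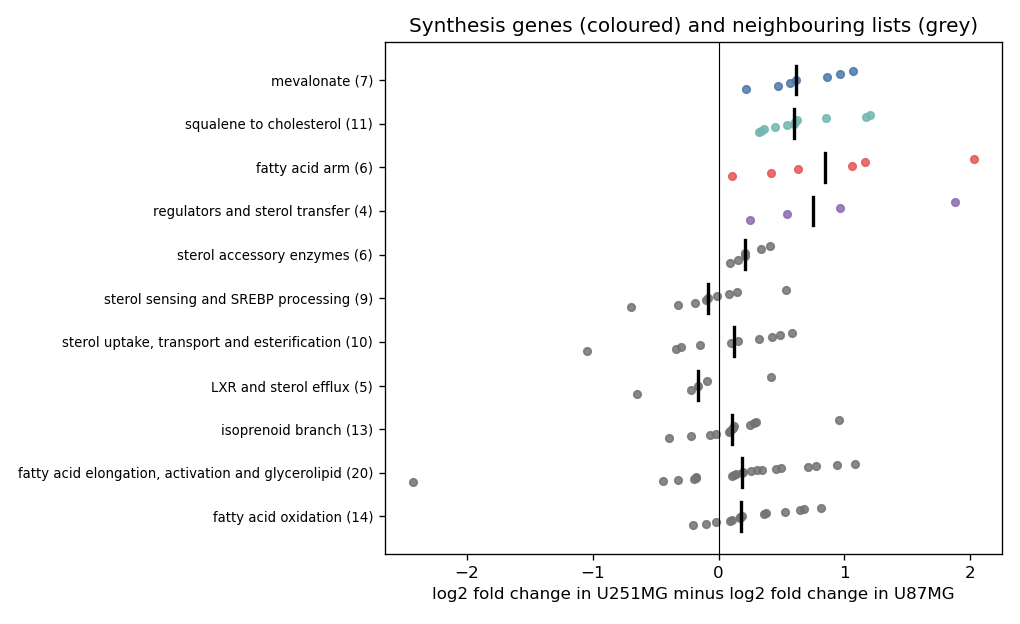
Log2 fold change in U251MG minus that in U87MG for each gene (points) of the 4 groups of synthesis genes (coloured) and of 7 neighbouring lists (grey), with black bars for medians and the number of genes in brackets. Every coloured point lies right of 0 (25 of 28 from the most abundant RNA of each gene alone), whereas grey points lie on both sides and their medians run from -0.16 to 0.21.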

How the data were processed

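The 4 samples, 1 per arm and cell line, were sequenced as mRNA libraries, for which the labels and the paper name different kits. The authors trimmed the reads, aligned them to GRCh38 (GRCh38.p13 in the submitters' processing notes) with HISAT2, and took FPKM from StringTie. The deposited table holds 216388 RNAs. For the 185042 linear RNAs it gives estimated counts, not normalized, and the authors' FPKM, scaled by length and by mapped fragments. The tool behind the counts is not given in the sources used here. The 31346 circular RNAs and 10 further value columns, TPM and means, were not used. Estimated counts can be divided between the RNAs of a gene and between near-identical genes.

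Linear counts were summed per gene identifier (46660, of which 23775 had a symbol) and rounded. Total counts were 12229780, 21250153, 18108612 and 28891055 in U87MG control, U87MG shFLI1, U251MG control and U251MG shFLI1. Tools were Python 3.11.15, R 4.3.3, DESeq2 1.42.0 and edgeR 4.0.16. Counts were TMM-scaled, with a prior count of 2, and genes needed at least 10 counts in 1 library of a pair. Past 2-fold meant a larger fold change with a two-sided exact binomial read test at p below 0.05. Intervals at 95% are Clopper-Pearson intervals of read proportions. PCR reads are not independent molecules, so they cover counting error only. The interval of a difference combined those of its 2 fold changes. The shared effect and the cell line difference came from a quasi-likelihood fit of edgeR to all 4 libraries, with Benjamini-Hochberg adjustment over all 16747 genes. The scripts were tested on simulated counts.

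The 28 genes, the 7 neighbouring lists and the markers were chosen with earlier results of these data known. Named were all 28 genes, *FLI1*, and from each list the genes past 2-fold the same way in both lines, those with a shared effect and the gene with the largest mean absolute log2 fold change. *ME1*, *LPIN1*, *SLC25A1*, *ELOVL5*, *ACACB* and *SCD5* were named besides, after their values were seen. Some genes of these pathways are not analysed here. Alternatives covered scaling, filters, prior count, fold threshold, depth, the most abundant RNA alone, FPKM with pseudocounts of 1 and 0.1, DESeq2 and the model terms. Counts of genes by interval were recomputed under alternatives chosen after seeing the data.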

Additional observations from a re-analysis of the deposited data

Results flagged for a closer look

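In 15 genes the only shFLI1 library of U87MG was lower than its control and the only one of U251MG was higher, each by its counting interval, beside 3.9% of all genes and 5.84% of those with at least 100 counts in every library. The count was 12 with total-count scaling (without *FDFT1*, *MVK* and *SREBF1*) and 11 from the most abundant RNA of each gene (without *FDPS*, *HMGCS1*, *LSS* and *MSMO1*). This difference was not tested, since each arm is 1 library. The log2 fold change in U251MG exceeded that in U87MG by 2.03 for *SCD*, 1.88 for *INSIG1*, 1.20 for *LSS*, 1.17 for both *CYP51A1* and *FADS2*, 1.07 for *MVK*, 1.06 for *FASN* and 0.96 for both *HMGCS1* and *SREBF1*. It exceeded it by 0.63 for *FADS1*, 0.62 for *FDFT1*, 0.61 for both *FDPS* and *MSMO1*, 0.60 for *EBP* and 0.54 for *SREBF2*. These 15 held members of all 4 groups, from mevalonate to the regulators.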

How the results depend on the processing

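Each arm was 1 library, so no replicate could be left out and no spread between replicates was available. Replicate numbers paired no samples, and shFLI1 was paired with control by the cell line block. Without that block 0 of 28 genes had a shared effect, and 0 had p below 0.05 before adjustment. Depth limited the lowest genes most: *HSD17B7*, with 122 counts in U87MG control, had the widest interval of the 28 (-0.90 to -0.20). Counts past 2-fold turned on the threshold. At 1.5-fold they were 3 in U87MG and 9 in U251MG. With the shFLI1 libraries thinned, 1 gene (*CYP51A1*) passed in U87MG, and with DESeq2 size factors 1 (*SCD*) passed in U251MG, while from the most abundant RNA alone 2 passed there (*SCD* and *SREBF1*). Thinning left 1 of the 28 genes higher by interval in U87MG, in place of 3. The count of genes with a cell line difference was 0 without the arm as a term, and 5 had p below 0.05 without adjustment. Total-count scaling moved the median of all tested genes from 0.06 to 0.22 in U87MG and from 0.04 to 0.11 in U251MG. It put 35.7% of the 28 genes above 0 in U87MG and FPKM put 28.6% there, in place of 17.9%. With TMM scaling, 55.6% of all tested genes were above 0 in U87MG. The U87MG medians became -0.18 (sterol) and -0.19 (fatty acid) with total counts, and the fatty acid median -0.16 and -0.17 on FPKM with pseudocounts of 1 and 0.1. In U251MG the fatty acid median was 0.57 with total counts, 0.83 from the most abundant RNA alone, and 0.44 and 0.45 on FPKM. The direction changed for *SREBF1* in U87MG (0.0405 with total counts, 0.0633 and 0.0643 on FPKM), and from the most abundant RNA alone for *HMGCS1* in U87MG (0.20) and *FDPS* in U251MG (-0.0119). The cause was not tested. Of 504 single-gene values under alternatives, 403 moved by less than their counting interval, 96 moved further and 5 called values changed direction. The 403 include 56 values from each of the count filters, which cannot move a fold change, and 56 from the smaller prior count. By setting, total-count scaling moved 24 further, FPKM 22 and 27 (pseudocounts of 1 and 0.1), and the most abundant RNA alone 15. The fold change in U251MG exceeded that in U87MG for 28 of 28 genes under each alternative except the most abundant RNA alone, where 25 did and *STARD4* was lowest at -0.85. The count filters and the fold threshold leave fold changes as they were, so they could not alter this count.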
